A study of Mus musculus with 860 samples.

Results

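At E11.5 of mouse development, index-sorted GFI1+ cells of the intra-aortic haematopoietic clusters (IAHC) were set against each other: 37 cells that the authors had placed in their Louvain cluster 2 and 81 that they had placed in their Louvain cluster 0. Members were the cells of population Gfi1_pos_IAHC at stage E11.5 that passed the authors' quality filter and came from the batches named GL53 and GL78, which gave 37 and 81 of the 775 cells kept in the series (860 sequenced). Cluster 2 gave 22 cells in GL53 and 15 in GL78, and cluster 0 gave 40 and 41. All came from the aorta-gonad-mesonephros (AGM) region of embryos of the strain labelled CD1/Gf1+, which carry the Gfi1:tomato reporter, and all were sorted through the same CD31+cKIT+GFI1+ gate without any treatment. The AGMs were pooled, and the sources used here do not give the number of reporter copies per embryo. The study asked how Notch receptors and ligands are used as HSCs form, and the index sort ties surface proteins to the RNA of the same cell.

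HSCs arise from haemogenic endothelium (HE) in the ventral wall of the dorsal aorta. Endothelial cells that switch on RUNX1 and GFI1 lose endothelial genes, round up and join the clusters, and CD45 appears on their surface as pre-HSCs mature. Venous, capillary and lymphatic endothelium of the same region carries CD31 too, and apelin receptor (encoded by Aplnr) and COUP-TFII (encoded by Nr2f2) mark its venous part.

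All 37 and 81 cells carried the label "Hematopoietic cells". The marker RNAs of cluster 0 went against it. Of 8 haematopoietic markers (Ptprc, Runx1, Myb, Spi1, Ikzf1, Gfi1b, Itgb2 and Cd53), cluster 2 cells had reads of 4 to 8 in GL53 (median 6) and 5 to 7 in GL78 (median 7), and every cluster 0 cell had reads of 0 or 1. Of 8 endothelial markers (Cdh5, Pecam1, Kdr, Tek, Tie1, Flt1, Emcn and Egfl7), cluster 2 cells had reads of 1 to 8 in GL53 (median 3.5) and 0 to 5 in GL78 (median 2), whereas each of the 81 cluster 0 cells had reads of all 8. The summed level of the endothelial markers per cell had medians of 1281 CPM (counts scaled to a total of 1000000 in the cell) in cluster 2 and 8982 CPM in cluster 0 of GL53, and of 320.9 and 6784 CPM in GL78. The haematopoietic sum had medians of 1327 CPM in cluster 2 and 0 CPM in cluster 0 of GL53, and of 1773 and 0 CPM in GL78. Cluster 0 also carried the venous markers Aplnr, Nr2f2, Ephb4 and Nrp2, with 3 to 4 of the 4 in every cell, against 0 to 2 in cluster 2 cells. Its cells are therefore called Aplnr endothelial cells by their RNA, and those of cluster 2 haematopoietic cells.

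**Figure D1:**
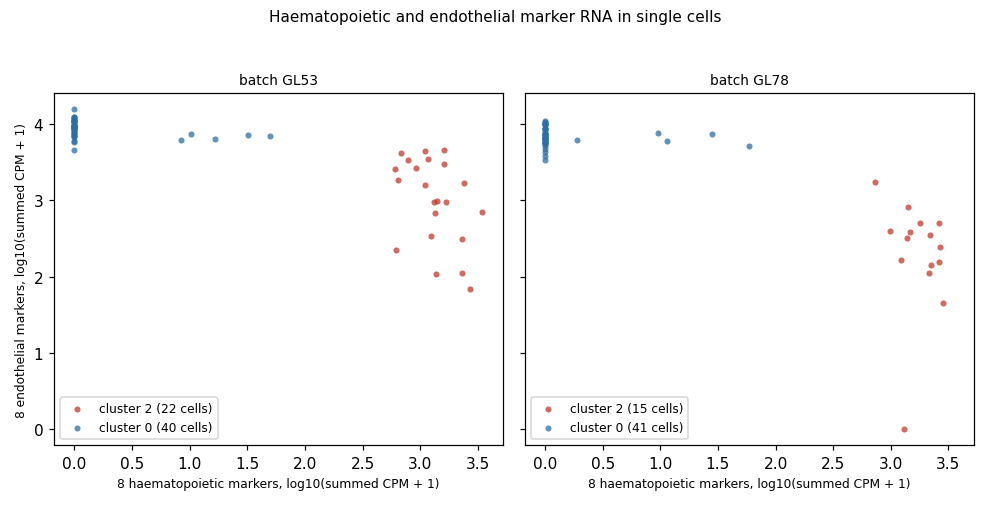
Summed CPM of 8 haematopoietic markers (horizontal) against 8 endothelial markers (vertical) per cell, both on a log10(CPM + 1) scale, in GL53 and GL78, with cluster 2 in red and cluster 0 in blue. Cluster 0 cells lie at the upper left, with endothelial sums of 3369 CPM or more and haematopoietic sums of at most 57.2 CPM, while the endothelial sums of cluster 2 cells run over a range of 0 to 4573 CPM.

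The clusters were built by the authors from the RNA of these same cells, so an RNA difference between them is a description and no test of it was made. The labels name no animal, so each cluster counted as 1 sample and no p-value is given. The fluorescence values were not used in the clustering, but cells of a pool are not replicates and these values also stand without a test. The labels give GL53 and GL78 as batch names only, and the ± given here is the SD over these 2. The summed counts were 14637693 and 9475697 in cluster 2 and 25645706 and 33281100 in cluster 0 (GL53 and GL78), with 386093 to 1775656 counts per cell. Median genes detected at 100000 counts were 6151 in cluster 2 and 5893 in cluster 0 of GL53, and 5294 and 5935 in GL78, so the order of the clusters differed between batches. The authors' phase calls put 12 of 22 cluster 2 cells in G1 against 28 of 40 cluster 0 cells in GL53 (54.5%, 32.2 to 75.6%, and 70%, 53.5 to 83.4%) and 8 of 15 against 23 of 41 in GL78 (53.3%, 26.6 to 78.7%, and 56.1%, 39.8 to 71.5%). Intervals of shares are exact Clopper-Pearson and those of counts exact Poisson, both 95%. Intervals of shares cover the counting of cells only. The reads carried no molecular identifiers, so intervals of counts treat each read as independent and are too narrow for molecules. They also leave out the spread between cells.

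CD45, the leukocyte phosphatase encoded by Ptprc, was the brighter signal of cluster 2. CD45 fluorescence per cell ran over 904 to 30405 with a median of 9619 in cluster 2 of GL53, and over 383.9 to 2390 with a median of 1106 in cluster 0. In GL78 it ran over 2765 to 34076 (median 19093) in cluster 2 and over 262.4 to 2694 (median 1057) in cluster 0. The ranges did not overlap in GL78, and in GL53 18 of the 22 cluster 2 cells lay above every cluster 0 cell. The ratio of medians was 8.70 and 18.1, and the cluster 2 cell was the brighter in 93.2% of all pairs of a cluster 2 and a cluster 0 cell in GL53 and in every pair in GL78.

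CD31, the adhesion molecule encoded by Pecam1, ran the other way. Its median signal was 8372 in cluster 2 and 52515 in cluster 0 of GL53, and 4077 and 40043 in GL78. In GL78 the cluster 2 cell was brighter in 0.163% of the pairs, with signals of 1618 to 13985 in cluster 2 and 9032 to 104738 in cluster 0. In GL53 the cluster 2 signals stretched over 2891 to 80336, which covers most of the cluster 0 range of 5606 to 101329, and 23.8% of the pairs had the brighter cell in cluster 2. CD31, cKIT and GFI1 were markers of the sort gate, so the cells had been selected on these signals.

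cKIT, the receptor for stem cell factor, had higher medians in cluster 2 in both batches, with 1003 against 641 in GL53 and 1189 against 535 in GL78, and the cluster 2 cell was brighter in 75.2% and 84.4% of the pairs. The GFI1 reporter signal had medians of 1053 and 676 in cluster 2 and cluster 0 of GL53, and of 854 and 643 in GL78. It exceeded the highest cluster 0 cell in 8 of 22 and 6 of 15 cluster 2 cells. These brightest cells had reads of 6 to 8 of the 8 endothelial markers in GL53, and of 1 to 5 in GL78. CD31 and GFI1 signals had Spearman's rho of 0.64 and 0.06 in cluster 2 of GL53 and GL78. CD41, the platelet integrin subunit encoded by Itga2b, had a median of 1404 against 881 in GL53 but of 854 against 905 in GL78, so the batches did not give a common direction.

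The Notch proteins were the question of the index sort. NOTCH1 signal was 254.7 to 863 (median 508) in cluster 2 and 620 to 2186 (median 1186) in cluster 0 of GL53, and 262.5 to 1547 (median 417) and 391 to 2113 (median 892) in GL78. The cluster 2 cell was brighter in 2.39% and 15.6% of the pairs, and 16 of 22 cluster 2 cells of GL53 lay below every cluster 0 cell. The ligand JAG1 had medians of 4996 in cluster 2 and 10470.3 in cluster 0 of GL53, and of 5305 and 13001 in GL78, with the cluster 2 cell brighter in 25.6% and 5.53% of the pairs. In GL53 the JAG1 signal of all 22 cluster 2 cells lay within the cluster 0 range of 1897 to 17049.

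DLL4 and NOTCH2 signals were mostly below 0, and the sources used here do not say how the signals were corrected. Only their order within a batch is given, as an order of signals. DLL4 medians were −226 in cluster 2 and −57.6 in cluster 0 of GL53, and −339 and −63.3 in GL78. Of the 37 cluster 2 cells, 36 had a DLL4 signal at or below 0 (22 in GL53 and 14 in GL78), against 31 of 40 and 30 of 41 cluster 0 cells. NOTCH2 medians were −86.0 and −26.4 in cluster 2 and cluster 0 of GL53, and −241 and −73.6 in GL78. The DLL4 signal was lower in cells of higher CD45 signal in each cluster, with Spearman's rho of −0.88 and −0.66 in cluster 2 (GL53, n = 22, and GL78, n = 15) and −0.58 and −0.51 in cluster 0 (n = 40 and 41). Such correlations are descriptions over the cells of a batch, and the labels do not say what a batch comprised. Cluster 2 also had the higher CD45 signal, and whether its lower DLL4 medians reflect DLL4 protein was not tested.

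**Figure D2:**
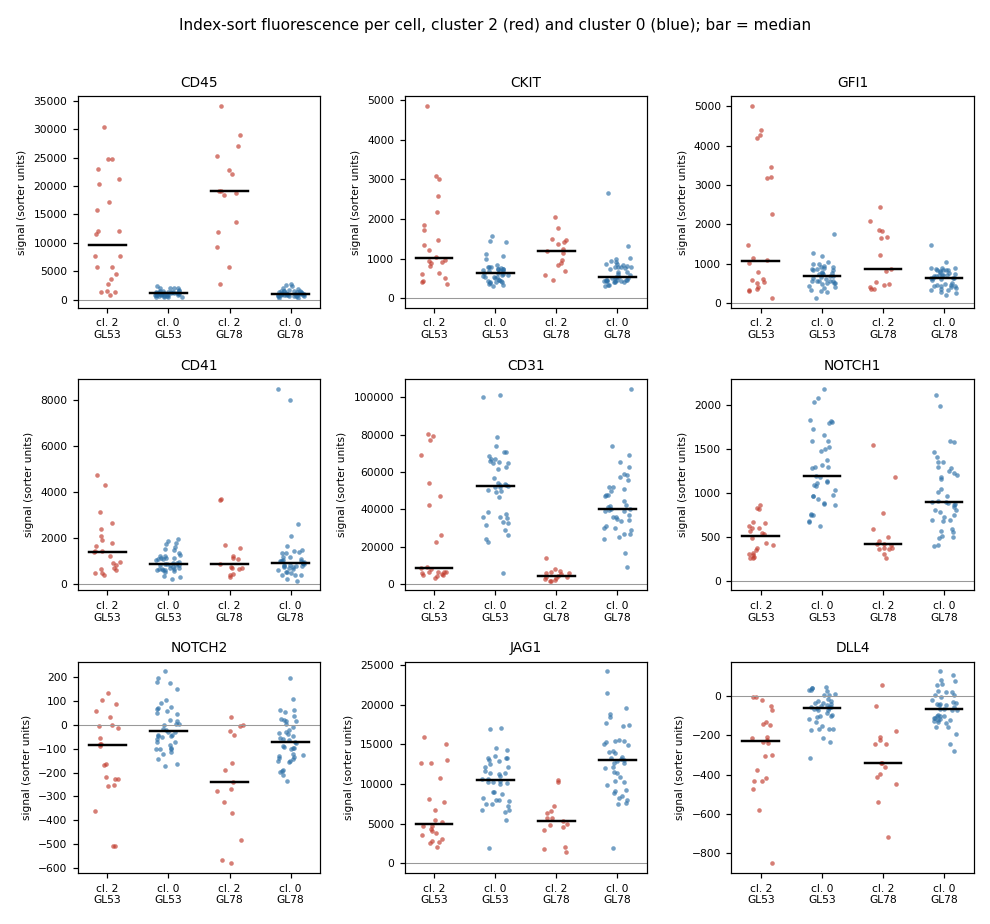
Fluorescence of the 9 index-sort signals, in the sorter's units, for each cell of cluster 2 (red, left) and cluster 0 (blue, right) in GL53 and GL78, with a bar at each median. CD45 medians of 9619 and 19093 in cluster 2 stand against 1106 and 1057 in cluster 0, while CD31, NOTCH1 and JAG1 have the lower medians in cluster 2 in both batches.

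Other pairs of signals were described in the same way. CD31 and JAG1 had rho of 0.79 and 0.33 in cluster 2 of GL53 and GL78, and of 0.92 and 0.90 in cluster 0. Jag1 RNA and the JAG1 signal had rho of 0.01 and 0.45 in cluster 2, and of −0.08 and 0.37 in cluster 0. Cluster 2 also had the lower CD31 signal, and whether its lower JAG1 medians reflect JAG1 protein was not tested. NOTCH1 and JAG1 had rho of 0.05 and −0.47 in cluster 2, and of 0.43 and 0.68 in cluster 0. cKIT and CD45 had rho of −0.45 and 0.04 in cluster 2, against 0.72 and 0.76 in cluster 0. The differences between these coefficients were not tested.

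The RNA of the cells was summed over each cluster and batch and scaled to CPM, and the log2 ratio of cluster 2 over cluster 0 was taken with a pseudocount of 1 CPM, which understates the ratio of low genes. Of 9721 genes measured (10 CPM or more in either cluster in each batch), 990 were at least 2-fold higher in cluster 2 in both batches (10.2%) and 1175 at least 2-fold lower (12.1%). At 4-fold these were 484 (4.98%) and 635 (6.53%). "Higher" and "lower" mean this 2-fold criterion throughout, and a gene that was measured only through its level in the cluster where it was high had to differ. Scaling by TMM factors of edgeR, which allow for differences in composition, moved every ratio by −0.17 in GL53 and −0.24 in GL78 and gave 779 genes higher and 1390 lower. Across genes, which do not stand for replicates, the ratios of GL53 and GL78 had a Pearson r of 0.77, and 1.58% of the genes were at least 2-fold apart in opposite directions.

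The haematopoietic side was led by genes of leukocyte signalling and surface with no or nearly no reads in cluster 0. Dock2 (ENSMUSG00000020143, chromosome 11, 34226815 to 34783892, minus strand, GRCm38), an exchange factor that activates Rac in blood cells, was the only gene with reads in all 37 cluster 2 cells and none of the 81 cluster 0 cells. Its level per cell was 5.14 to 1788 CPM (median 237.8) in cluster 2 of GL53 and 64.2 to 1018 CPM (median 297.8) in cluster 2 of GL78, against 0 counts in cluster 0. Summed, it stood at 308.5 and 378.9 CPM in cluster 2 (299.5 to 317.6 and 366.6 to 391.5 CPM). This is 2637-fold and 4203-fold above a floor set at 3 counts for each cluster and batch. The reads carried no molecular identifiers, so this floor is a convention on read counts. Ratios that rest on it, here and below, do not bound a ratio of molecules.

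Spi1 (ENSMUSG00000002111, chromosome 2, 91082390 to 91115756, plus strand), which encodes the myeloid and stem cell factor PU.1, had reads in 21 of 22 and 15 of 15 cluster 2 cells, with medians of 291.7 and 201.4 CPM, and 0 counts in cluster 0. Its sums in cluster 2 were 2359-fold or more and 2639-fold or more above the floor. Ptprc (ENSMUSG00000026395, chromosome 1, 138062861 to 138175708, minus strand) had reads in 19 of 22 and 14 of 15 cluster 2 cells (medians 157.4 and 439.8 CPM) and in 0 of 81 cluster 0 cells, where a limit of 3 cells allows a share of up to 3.70%. The RNA and protein of this gene thus separated the clusters in the same direction. Within cluster 2 the Ptprc level and the CD45 signal of a cell had Spearman's rho of 0.70 (n = 22) and 0.47 (n = 15).

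Runx1 (ENSMUSG00000022952, chromosome 16, 92601466 to 92826149, minus strand), the factor required for the endothelial-to-haematopoietic transition, was at 0 to 439.8 CPM per cell (median 154.7) in cluster 2 of GL53 and 0 to 49.2 CPM (median 0) in cluster 0. In GL78 it was at 0 to 355.5 CPM (median 73.8) in cluster 2 and 0 to 27.04 CPM (median 0) in cluster 0. Reads were found in 20 of 22 and 14 of 15 cluster 2 cells, against 3 of 40 and 3 of 41 cluster 0 cells. The summed level was 113.2-fold (83.5 to 157.4) and 124.5-fold (86.7 to 185.4) higher in cluster 2.

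The other genes that ranked first on this side were Cd69, a leukocyte lectin (log2 ratio 9.04), Tyrobp, an adaptor of immune receptors (8.45), Ptprcap, which encodes a CD45-associated protein (8.10), Traf3ip3, Plac8, Cd52, the GTPase gene Rac2 (8.68), the interferon-induced gene Ifitm1, the myosin gene Myo1g, the serglycin gene Srgn (8.28), Gpr171 and the tetraspanin gene Cd53. Cd69 was the least evenly spread, with reads in 11 of 22 and 12 of 15 cluster 2 cells. Srgn per cell ran over 35.2 to 3432 CPM in cluster 2 of GL53 against 0 CPM in cluster 0, and over 76 to 1648 against 0 to 52.5 CPM in GL78. Dock2 and Srgn were the only higher genes whose cells did not overlap in either batch (0.0206% of the measured genes), and Mest and Emcn the only lower ones (0.0206%). In all, 10.3% of the higher genes had 0 counts in cluster 0 of both batches and 11.3% of the lower genes 0 counts in cluster 2. Ifitm1 has close relatives in the genome, so its count may be split between them.

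The endothelial side was led by Aplnr (ENSMUSG00000044338, chromosome 2, 85136225 to 85139923, plus strand). It had 1 read in 1 of 22 and none in 15 cluster 2 cells, against 94.8 to 3692 CPM (median 1495) in cluster 0 of GL53 and 0 to 2594 CPM (median 1265) in cluster 0 of GL78, where 40 of 41 cells had reads. The log2 ratio was −10.40 ± 0.16, and the sum in GL78 was at least 3931-fold lower. In GL53, where cluster 2 held 1 count, the ratio was 22874-fold lower with an interval of 4105 to 903498.

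Mest (ENSMUSG00000051855, chromosome 6, 30723547 to 30748465, plus strand), a paternally expressed imprinted gene of growing embryonic mesoderm, had reads in 1 of 22 and 1 of 15 cluster 2 cells (at most 1.398 and 50.9 CPM). In cluster 0 every cell had reads, at 275.8 to 7313 CPM (median 3000.2) in GL53 and 538 to 5735 CPM (median 3411) in GL78. Emcn (ENSMUSG00000054690, chromosome 3, 137341067 to 137432185, plus strand), the endothelial sialomucin endomucin, ran over 0 to 213.3 CPM in cluster 2 of GL53 against 613 to 5214 CPM in cluster 0, and over 0 to 52.03 against 424 to 2813 CPM in GL78.

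Of the 15 lower genes that ranked first, 9 had 0 counts in cluster 2 of both batches, namely the angiomotin-like gene Amotl1, Apold1, the lipid phosphatase gene Plpp3, the carboxypeptidase gene Cpe, the laminin chain gene Lama4, Ushbp1, Tmem255a, the scavenger receptor gene Stab2 and the matrix protein gene Tgfbi. Lama4 was at 233.2 and 251.6 CPM in cluster 0, so that cluster 2 was lower by at least 1138-fold and 795-fold. Stab2, a gene of sinusoidal and lymphatic endothelium, was at 163.5 and 339.2 CPM with reads in 31 of 40 and 31 of 41 cluster 0 cells. The remaining genes were the caveolin gene Cav1 (−7.74 ± 0.32), the endothelin receptor gene Ednrb (−8.05 ± 0.83), the dematin gene Dmtn (−7.57 ± 0.19) and Crmp1 (−7.65 ± 0.55).

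**Figure D3:**
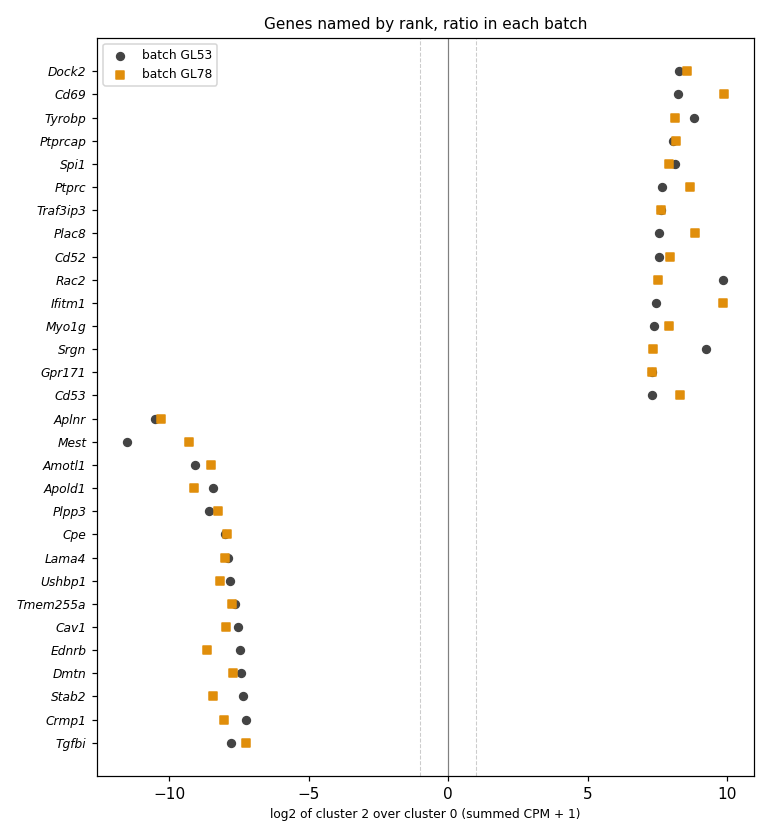
Log2 ratio (CPM of cluster 2 over CPM of cluster 0, pseudocount 1 CPM) of the 15 higher and 15 lower genes that ranked first, with a point for GL53 and a point for GL78, and dashed lines at the 2-fold limits. Dock2 lies at 8.27 and 8.57 and Aplnr at −10.52 and −10.28, the values of both batches on the same side for every gene by the rule that chose them.

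Sequences upstream of these genes are shown so that the 2 sides can be read side by side. Of the 30 genes named by rank, 19 matched a promoter window of the RefSeq table (GRCm38.p6), which covers 250 bases before and 50 after a start. The 250 bases before the start follow for 2 genes higher in cluster 2 and 2 lower. Capitals mark matches, on either strand, to the ETS core CCGGAA, the PU.1-type core GAGGAA, the RUNX core TGTGGT, the GATA core AGATAA, the SOX core ACAATG and the COUP-TF core AGGTCA, and a match is a run of letters, not a shown binding site. The windows are Dock2 (chr11:34783906-34784155, minus strand), Cd53 (chr3:106790150-106790399, minus strand), Mest (chr6:30737800-30738049, plus strand) and Stab2 (chr10:87007943-87008192, minus strand).
Dock2: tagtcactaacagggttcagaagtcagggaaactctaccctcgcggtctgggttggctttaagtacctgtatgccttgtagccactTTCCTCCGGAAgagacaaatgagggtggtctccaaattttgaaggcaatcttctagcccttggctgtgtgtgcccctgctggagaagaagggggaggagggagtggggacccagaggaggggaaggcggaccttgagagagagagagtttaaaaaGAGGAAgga
Cd53: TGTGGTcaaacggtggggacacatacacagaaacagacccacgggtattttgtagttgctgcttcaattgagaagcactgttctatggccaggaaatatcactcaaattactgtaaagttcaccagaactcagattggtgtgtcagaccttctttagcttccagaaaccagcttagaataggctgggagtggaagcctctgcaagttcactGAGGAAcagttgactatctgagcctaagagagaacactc
Mest: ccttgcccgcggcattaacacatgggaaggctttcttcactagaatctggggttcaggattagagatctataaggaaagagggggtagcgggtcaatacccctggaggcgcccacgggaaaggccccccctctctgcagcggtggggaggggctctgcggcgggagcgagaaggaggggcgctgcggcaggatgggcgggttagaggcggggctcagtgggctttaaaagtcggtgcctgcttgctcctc
Stab2: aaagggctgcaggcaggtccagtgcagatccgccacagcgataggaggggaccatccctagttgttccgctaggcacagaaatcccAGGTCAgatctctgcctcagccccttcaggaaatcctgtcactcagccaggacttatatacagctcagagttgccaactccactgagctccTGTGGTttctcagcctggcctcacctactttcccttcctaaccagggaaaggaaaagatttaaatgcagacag
Dock2 held GAGGAA on both strands and CCGGAA overlapping the first of these, and Cd53 held TGTGGT and GAGGAA. Stab2 held AGGTCA and TGTGGT, and the Mest window held no match. The table has 3 windows for Mest, and the most upstream, not shown, held GAGGAA. Among the genes named by rank GAGGAA did not sort with direction. Windows of the higher genes Dock2, Ptprc, Traf3ip3, Plac8 and Cd53 held it, and so did those of the lower genes Mest, Ushbp1, Tmem255a, Cav1 and Crmp1. CCGGAA lay only in windows of the higher genes Dock2, Plac8 and Srgn, and this difference was not tested. Windows of the higher genes Ifitm1 and Myo1g and of the lower genes Amotl1, Plpp3, Ednrb and Tgfbi held no match.

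Over all windows these letters did not divide the 2 sides sharply. On both strands of the 300 bases, CCGGAA was found in 21.1% of the windows of higher genes and 12.9% of those of lower genes, against 29.2% of those of measured genes and 14.9% of all windows. GAGGAA was found in 31.5% and 28.8% (26.6% measured, 28.3% all), TGTGGT in 15.7% and 12.3% (12.3% measured, 16.8% all) and AGATAA in 6.93% and 5.66% (5.92% measured, 11.2% all). For ACAATG the shares were 6.93% and 8.74% (7.03% measured, 12.6% all), and for AGGTCA 13.1% and 13.6% (12% measured, 16.3% all). A window was at hand for 729 of the 990 higher and 868 of the 1175 lower genes.

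**Figure D4:**
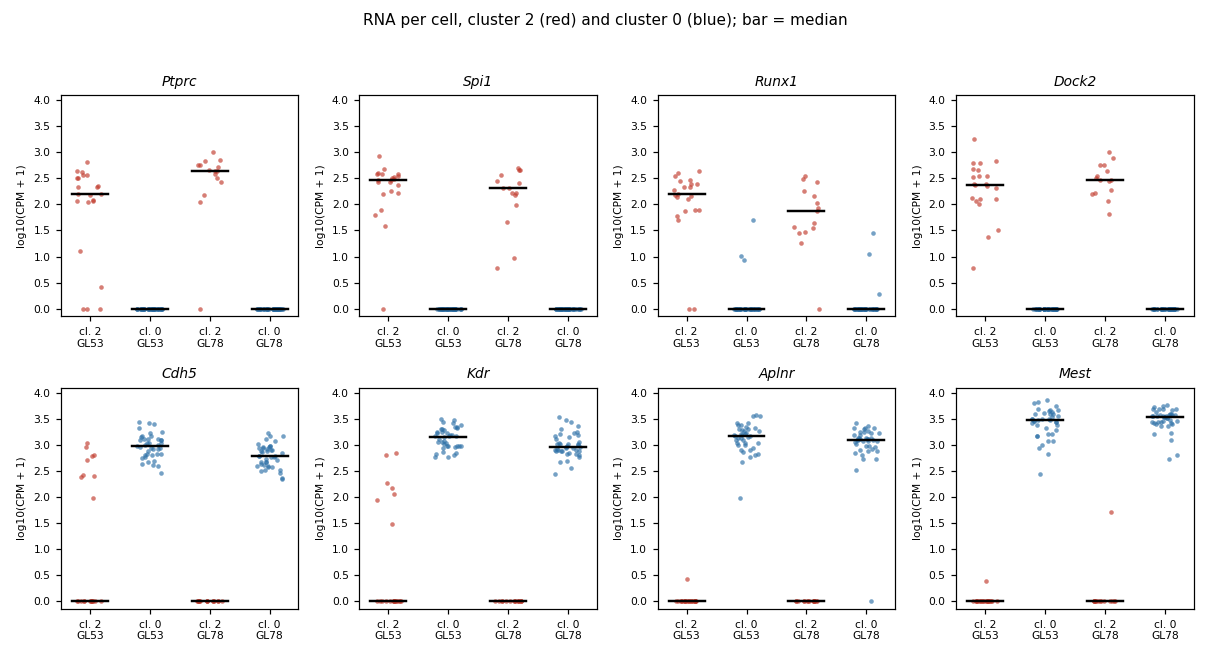
RNA level per cell, as log10(CPM + 1), of Ptprc, Spi1, Runx1, Dock2, Cdh5, Kdr, Aplnr and Mest in cluster 2 (red, left) and cluster 0 (blue, right) of GL53 and GL78. Dock2 has reads in all 37 cluster 2 cells and in no cluster 0 cell, while Cdh5 and Kdr have reads in 9 and 7 of the 22 cluster 2 cells of GL53 and in 0 of 15 in GL78.

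Genes of haematopoietic identity were examined as lists. Beside each count stands the median log2 ratio of the members measured, which was 0.05 over all measured genes. The lists were written with earlier results of these cells known, and a member with reads in cluster 2 alone could not have gone the other way. Of 19 haematopoietic transcription factors 16 were measured, of which 11 were higher and 0 lower (median 4.43, 4.71 in GL53 and 3.98 in GL78). Spi1 led them (8.01 ± 0.15), followed by Ikzf1, which encodes the lymphoid-biased factor Ikaros, at 306.5 and 437 CPM in cluster 2 against 0 and 2.43 CPM in cluster 0 (7.63 ± 0.90). Runx3 (7.47 ± 0.40) had 0 counts in cluster 0, and Ikzf2 at 7.04 ± 2.36.

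The 7 heptad factors, which bind together at enhancers of blood stem cells and several of which also work in endothelium, behaved otherwise. Runx1 was higher (6.02 ± 0.17) and 0 were lower, and the median was 0.04 (−0.16 under TMM). Gata2 was at 124.7 and 875 CPM in cluster 2 against 68.9 and 77.01 CPM in cluster 0, but 8 of 15 cluster 2 cells of GL78 had reads of it, against 34 of 41 cluster 0 cells, and the highest cell held 32.1% of the summed CPM. Tal1 (0.94 and −0.86 in GL53 and GL78), Lyl1 (0.71 and −0.17), Lmo2 (−0.09 and 0.02), Fli1 (−1.14 and −0.85) and Erg (−0.67 and −0.86) did not reach 2-fold in the same direction in both batches.

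HSC-associated genes had 11 higher and 1 lower of 19 measured (median 1.86). Hlf, a factor of HSCs and their precursors, had reads in 15 of 22 and 4 of 15 cluster 2 cells, against 2 of 40 and 0 of 41 cluster 0 cells. It stood at 105.4 and 37.4 CPM in cluster 2 and 0.741 and 0 CPM in cluster 0 (5.60 ± 0.48). Adgrg1, which encodes the HSC surface receptor GPR56, stood at 766 and 306.9 CPM against 14.6 and 5.83 CPM (5.56 ± 0.09). Cd27 (3.99 ± 0.81) and the homeobox gene Meis1 (3.89 ± 0.11) were higher too. The lower gene was Esam, an adhesion gene that endothelium shares with HSCs, at 337.1 and 31.1 CPM against 819 and 848 CPM (−3.00 ± 2.44). Mecom (−0.80) and Procr (−0.87) met neither criterion.

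The genes of leukocyte signalling had 24 higher and 0 lower of 25 measured (median 5.56). Coro1a, an actin regulator of leukocytes, stood at 1180 and 1296 CPM in cluster 2 and 0.195 and 22.7 CPM in cluster 0 (7.86 ± 2.95), and Arhgap15, a Rac inhibitor, at 152.4 and 222.7 CPM against 0 counts (7.53 ± 0.38). The Src-family kinase gene Lyn was the measured member that was not higher, at 128.7 and 116.1 CPM against 124.9 and 94.3 CPM. Of leukocyte surface and adhesion genes, 12 were higher and 0 lower of 13 measured (median 6.67), with Cd53 (7.80 ± 0.72), Cd52 (7.75 ± 0.29) and the integrin gene Itgb2 (7.39 ± 0.33) beside Ptprc (8.18 ± 0.71).

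Many of these genes have a relative that is used outside the blood, and 18 such pairs were set side by side by their own ratios. The pairs were chosen for a blood-restricted member with earlier results of these cells known, and the clusters were built from the same RNA. The direction of the blood members was thus largely set by the choice. Over all measured genes 10.2% were higher and 12.1% lower. The blood member was higher in 18 of 18 pairs (median 5.57, range 1.65 to 8.68). Of the other members 0 were higher, 9 were lower and 9 were neither (median −1.34, range −5.82 to 0.33). Of the lower ones Pls3, Cttn and Inppl1 lost the call in G1 cells alone, and Inppl1 also after thinning. Among the GTPases Rac2 was at 8.68 and Rac1 at −0.73, and among their exchange factors Dock2 was at 8.42 and Dock1 at −2.40. The kindlins, which activate integrins, had Fermt3 at 5.56 and Fermt2 at −5.82, and the integrin beta chains Itgb2 at 7.39 and Itgb1 at −1.77. Subunits of the WAVE actin complex had Nckap1l at 6.55 and Nckap1 at −5.65, and receptor phosphatases Ptprc at 8.18 and the endothelial Ptprb at −3.94. Vav exchange factors had Vav1 at 6.67 and Vav3 at 0.33, and the plastins, which bundle actin, had Lcp1 at 1.65 and Pls3 at −4.11. Whether reads of near-identical stretches were divided between relatives was not tested.

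Cytokine receptor genes had 10 higher and 3 lower of 15 measured (median 2.16, and 1.29 in G1 cells alone). Flt3, a receptor of lymphoid-myeloid progenitors, had reads in 14 of 22 and 10 of 15 cluster 2 cells against 1 of 40 and 0 of 41 cluster 0 cells (7.39 ± 0.36). Csf1r and Il7r were at 5.65 ± 0.64 and 5.43 ± 1.04. In G1 cells alone Il7r, Csf2ra, Il6ra and Ifngr1 lost the call, and without the highest cell Il6ra, Ifngr1 and Socs2 lost it. Ifngr1 lost it also with a pseudocount of 5 CPM, under TMM and with equal weight per cell, and Il6ra after thinning. Lower were Socs3, a feedback inhibitor induced by gp130 cytokines, at 2.66 and 14.2 CPM against 169.3 and 539 CPM (−5.34 ± 0.28), Lifr, which encodes a partner of gp130 (−4.89 ± 0.94), and Cish (−3.41 ± 1.6).

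Genes of single blood lineages were examined next. Mast and basophil genes had 3 higher of 3 measured among 8 listed (median 7.64). Cpa3, the mast cell carboxypeptidase gene, stood at 529 and 773 CPM in cluster 2 and 0 and 0.0301 CPM in cluster 0. Reads of it lay in 5 of 22 and 7 of 15 cluster 2 cells, and the highest cell held 84.98% and 49.9% of the summed CPM. The list called myeloid granule genes had 6 higher and 0 lower of 7 measured (median 6.69). Not all of its members encode granule proteins, since Tyrobp encodes the adaptor of immune receptors named above. The higher members included Tyrobp, Srgn, Nkg7 at 131.9 and 158.6 CPM against 0 counts, and Prtn3 at 223.8 and 52.5 CPM against 0 and 0.12 CPM. Lymphoid genes had 3 higher and 0 lower of 5 measured (median 5.27), with Ltb at 6.36 ± 1.5 and Tcf7 at 5.27 ± 0.30, where Tcf7 rested on 4 of 22 and 1 of 15 cluster 2 cells and lost the call without the highest cell. In G1 cells alone the lymphoid median was −1.29 and Il7r and Tcf7 lost their calls.

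Megakaryocyte genes had 4 higher and 0 lower of 7 measured (median 1.92, 4.04 in GL53 and 1.61 in GL78), among them Nrgn (3.79 ± 0.35, a call lost in G1 cells alone) and Gp1bb (3.35 ± 2.82). A cluster 0 cell of GL78 held 7690 CPM of the 4 megakaryocyte markers, with reads of all 4, and a CD41 signal of 8490. The median cluster 0 cell had 0 CPM of them. Macrophage genes had 3 higher (Cx3cr1, Csf1r and C1qb, of which C1qb lost the call under TMM, in G1 cells and without the highest cell) and 1 lower (Mrc1, −4.31 ± 0.32) of 5 measured. The summed macrophage markers C1qa, C1qb, Csf1r and Adgre1 ran over 0 to 644 CPM in cluster 2 and stood at 0 CPM in cluster 0 of GL53, and over 0 to 591 and 0 to 96.3 CPM in GL78, with medians of 0 CPM in each. C1qa was at 0 counts in cluster 0 of both batches. Erythroid and primordial germ cell genes had 0 measured members of 13 and 7. Mesenchyme genes had 1 measured member of 9 (Col3a1, lower, −4.70 ± 0.34), and mesonephric and coelomic genes had 2 measured members of 9, of which the keratin gene Krt18 was higher (4.47 ± 0.79).

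Genes of antigen presentation by MHC class I had 6 higher and 0 lower of 8 measured (median 1.70), with the immunoproteasome subunit genes Psmb8 (5.67 ± 0.49) and Psmb9 (3.99 ± 0.04, a call lost in G1 cells alone) and the peptide loading genes Tap2 (1.97 ± 0.11) and Tapbp (1.89 ± 0.34). Class I heavy chain genes are close relatives, so H2-K1 (1.5) and H2-D1 (0.16) may share reads.

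The endothelial programme was lower in cluster 2 throughout its lists, and the size of the difference depended on the batch. All 25 pan-endothelial genes were measured and 25 were lower, with a median of −3.44, −2.79 in GL53 and −4.72 in GL78. Cdh5 (ENSMUSG00000031871, chromosome 8, 104101625 to 104144511, plus strand), which encodes VE-cadherin, had reads in 9 of 22 cluster 2 cells of GL53 (0 to 1070 CPM, median 0) and in 0 of 15 in GL78, against 289.2 to 2746 CPM (median 964) and 222.3 to 1722 CPM (median 613) in the 40 and 41 cells of cluster 0. The sums were 5.49-fold (5.29 to 5.71) lower in GL53 and at least 2220-fold lower in GL78. Kdr, the main VEGF receptor gene, had reads in 7 of 22 and 0 of 15 cluster 2 cells and in every cluster 0 cell, with sums of 89.4 and 0 CPM in cluster 2 and 1449.7 and 1066 CPM in cluster 0. The tight junction gene Cldn5 was at 77.1 and 0 CPM in cluster 2 and 1066 and 1439 CPM in cluster 0. Ramp2, a partner of the adrenomedullin receptor, had reads in 13 of 22 and 0 of 15 cluster 2 cells and in every cluster 0 cell (−6.37 ± 4.90).

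Endothelial RNA in cluster 2 was uneven between the batches. Of the 22 cells of GL53, 10 had reads of at least 6 of the 8 endothelial markers, against 0 of 15 in GL78. Ptprc and Cdh5 reads lay in the same cell in 7 of 22 cluster 2 cells of GL53 and 0 of 15 in GL78, and in 0 of 40 and 0 of 41 cluster 0 cells. At least 6 of 8 of both marker sets were found in 3 cells, all in cluster 2 of GL53. These held 420667, 715266 and 870789 counts and 7621, 6780 and 8871 genes, where 8871 was the highest number of genes in either cluster of GL53 and in cluster 2 of GL78. They had CD31 signals of 80336, 77210 and 6220 and CD45 signals of 5764, 5781 and 4542. No doublet caller was run, and the part of 2 cells sorted together in these values was not tested. In cluster 2 of GL53 the endothelial marker sum and the CD31 signal had rho of 0.63 (n = 22), and in GL78 of 0.00 (n = 15).

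Genes of venous identity were lower throughout. Of 9 listed 8 were measured and 8 lower (median −5.63, −6.70 with genes lacking counts in a cluster put at the floor). Nr2f2 (ENSMUSG00000030551, chromosome 7, 70351944 to 70366735, minus strand) had reads in 1 of 22 and 0 of 15 cluster 2 cells, against 40 of 40 and 40 of 41 cluster 0 cells, with sums of 0.0683 and 0 CPM against 170.1 and 118.7 CPM. Flt4, the VEGF-C receptor gene of veins and lymphatics (−6.99 ± 2.02), and Ephb4, the receptor for ephrin-B2 on veins (−6.37 ± 3.04), were lower too. Lymphatic endothelial genes had 6 lower of 6 measured among 9 listed (median −6.89). The stabilin genes Stab1 and Stab2 were at 1.37 and 9.39 against 564 and 528 CPM, and at 0 against 163.5 and 339.2 CPM. Lyve1 was at 0.205 and 0 CPM against 233.6 and 194.6 CPM. Reads of Lyve1 lay in 27 of 40 and 17 of 41 cluster 0 cells, so not every cell carried it.

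Arterial genes were few and mixed in these clusters. Of 14 listed 7 were measured, 1 higher and 4 lower, and the median was −1.03 in GL53 and −5.46 in GL78. Stmn2 (−5.83 ± 0.52), Nrp1 (−5.76 ± 3.76), Tm4sf1 (−5.14 ± 1.26) and the connexin 37 gene Gja4 were lower. Gja4 was at 27.5 and 0 CPM in cluster 2 against 56.9 and 54.5 CPM in cluster 0, with reads in 5 of 22 and 0 of 15 cluster 2 cells and in 6 of 40 and 9 of 41 cluster 0 cells, and it lost the call with a pseudocount of 5 CPM, at 100000 counts per cell and in G1 cells alone. Genes of capillary lipid handling had 5 lower and 0 higher of 6 measured (median −4.73), among them the fatty acid binding protein gene Fabp4 (0.0683 and 0 against 189.7 and 129.6 CPM), the fatty acid transporter gene Cd36 (−6.44 ± 0.14) and Gpihbp1, which encodes the anchor of lipoprotein lipase (−5.08 ± 0.72).

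The receptors and matrix of the vessel wall were lower with them. VEGF, angiopoietin and TGF-beta receptor genes had 9 lower and 0 higher of 12 measured (median −3.83), with Acvrl1, the endothelial ALK1 receptor gene, at 14.4 and 0 against 196.2 and 160.6 CPM. The widely used receptor genes Bmpr2 (−1.0), Tgfbr1 (0.11) and Tgfbr2 (−0.81) met neither criterion. Of BMP and TGF-beta response genes 3 were lower and 0 higher of 6 measured (median −2.98), namely Id1 (−4.79 ± 4.46), Id3 (−4.24 ± 0.62) and Bambi (−3.97 ± 1.35). Basement membrane genes had 12 lower and 0 higher of 14 measured (median −3.87). Col4a1, a type IV collagen gene, was at 162.5 and 0 CPM in cluster 2 and 1531 and 1428 CPM in cluster 0, and the nidogen gene Nid1 at 11.6 and 0 against 330.8 and 327.8 CPM. Junction and caveolae genes had 11 lower and 0 higher of 13 measured (median −3.27), led by Cav1 (1.57 and 0 against 469.9 and 250.3 CPM).

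Of the flow-responsive and vasoactive genes, 8 were lower and 0 higher of 9 measured (median −3.90). The endothelin gene Edn1 was at 17.9 and 0 against 255.8 and 231.9 CPM, the nitric oxide synthase gene Nos3 at 8.74 and 1.37 against 109.6 and 95.5 CPM, and Apln, which encodes the ligand of the apelin receptor, at 0 counts against 10.9 and 125.1 CPM, a call lost in G1 cells and without the highest cell. Vwf, the von Willebrand factor gene, was at 450 and 0 against 785 and 253.8 CPM and met neither criterion. Of guidance genes 9 were lower and 0 higher of 12 measured (median −3.48), with Sema6a at −5.88 ± 1.86 and Sema6d at −5.53 ± 2.09.

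**Figure D5:**
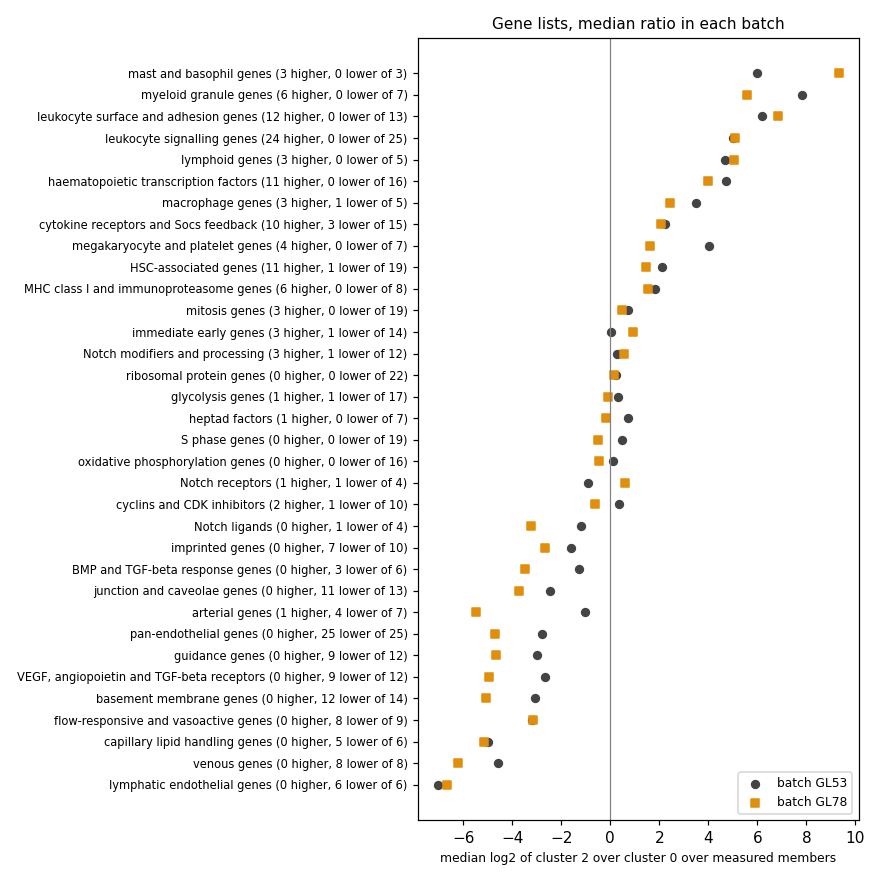
Median log2 ratio of the measured members of each gene list (cluster 2 over cluster 0) in GL53 (black circle) and GL78 (orange square). Leukocyte surface and signalling lists lie at 4.99 to 6.85, venous and lymphatic lists at −4.57 to −7.01, and ribosomal protein and oxidative phosphorylation lists between −0.47 and 0.25.

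Notch pathway genes differed gene by gene, and the study singled out several of them on these cells, so that their directions are not independent evidence. Notch1 (ENSMUSG00000026923, chromosome 2, 26457903 to 26516663, minus strand) was at 0 to 298.2 CPM per cell (median 45.6) in cluster 2 of GL53 and at 1.43 CPM or more (median 89.4) in cluster 0. In GL78 it was at 0 to 1390 CPM (median 78.1) in cluster 2 and 0 to 473 CPM (median 141.3) in cluster 0. Its sums gave log2 ratios of −0.90 and 0.64, and in GL78 the highest cluster 2 cell held 42.95% of the CPM. NOTCH1 protein had the lower median in cluster 2 in both batches. Notch1 RNA and NOTCH1 signal had rho of 0.50 in cluster 2 of each batch (n = 22 and 15) and of 0.43 and 0.03 in cluster 0 (n = 40 and 41).

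Notch2 (ENSMUSG00000027878, chromosome 3, 98013527 to 98150361, plus strand) was the higher receptor gene. It had reads in 22 of 22 and 14 of 15 cluster 2 cells, at 8.09 to 266.9 CPM (median 44.2) in GL53 and 0 to 663 CPM (median 148.6) in GL78. In cluster 0, 19 of 40 and 18 of 41 cells had reads, at 0 to 112.5 and 0 to 58.2 CPM, with medians of 0. The sums were 4.32-fold (3.81 to 4.90) and 28.7-fold (24.6 to 33.6) higher in cluster 2. The NOTCH2 signal did not follow, since its median was lower in cluster 2, at values below 0 in both clusters. Notch4, the endothelial receptor gene, was lower (−1.60 ± 0.13), and Notch3 stood at −0.88 and 0.57.

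Of the ligand genes Dll1 was 4.603-fold (4.23 to 5.02) lower in GL53 and at least 316.7-fold lower in GL78, with reads in 2 of 22 and 0 of 15 cluster 2 cells and in 33 of 40 and 28 of 41 cluster 0 cells. Jag1 had reads in 3 of 22 and 5 of 15 cluster 2 cells and in 26 of 40 and 21 of 41 cluster 0 cells, and stood at 15.3 and 19.4 CPM in cluster 2 and 55.02 and 25.3 CPM in cluster 0 (−1.78 and −0.36). Dll4 was at 11.6 and 0 CPM against 17.9 and 67.5 CPM, and Jag2 at −0.45 and 1.04. Of the targets, Hes1 was level (−0.08 and 0.43). Hey1 was higher at 1.15 ± 0.11, with reads in 5 of 22 and 4 of 15 cluster 2 cells and in 8 of 40 and 7 of 41 cluster 0 cells, a call lost with a pseudocount of 5 CPM, with TMM scaling and without the highest cell. Hes5, Heyl and Nrarp were not measured, and Hey2 had 0 counts in both clusters.

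Among 12 measured modifiers and processing factors, 3 were higher and 1 lower (median 0.25, 0.05 under TMM). Psen2, which encodes a catalytic subunit of gamma-secretase, was higher, at 101.8 and 310.6 CPM in cluster 2 against 30.1 and 18.3 CPM in cluster 0. Rfng, which encodes the fringe enzyme radical fringe, was at 37.8 and 43.4 against 14.9 and 16.2 CPM. It had reads in 11 of 22 and 4 of 15 cluster 2 cells and lost the call without the highest cell, at 100000 counts per cell and in G1 cells. Numb, a Notch inhibitor, was lower (34.98 and 35.04 against 136.3 and 113.2 CPM).

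The reporter gene itself was compared with its signal. Gfi1 RNA had reads in 9 of 22 and 3 of 15 cluster 2 cells, at up to 436 and 97.6 CPM, and in 0 of 81 cluster 0 cells. It stood at 66.8 and 14.99 CPM in cluster 2, 571-fold or more and 166.2-fold or more above the floor, and without the highest cell of each group it lost the call. Gfi1 RNA and the GFI1 signal had Spearman's rho of 0.75 and 0.39 in cluster 2 of GL53 and GL78. The sort gate divided the cells on this signal, so the order of GFI1+ and GFI1− cells was largely set by it. The median GFI1 signal of cluster 0 was above that of cells sorted as GFI1−. It was 676 and 643 in the GFI1+ cluster 0 cells, against 209.3 and 277.3 in GFI1− IAHC of cluster 0 at E11.5 (23 and 12 cells), where the highest values were 470.4 and 294.8. The lowest GFI1+ cluster 0 cells, at 130.3 and 200.1, lay inside the GFI1− range. How the reporter bears on the Gfi1 read count was not tested.

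For the other sorted proteins RNA and signal went together in part. Kit was at 553 and 998 CPM in cluster 2 and 83.2 and 60.9 CPM in cluster 0 (3.36 ± 0.91), with reads in all 37 cluster 2 cells and in 33 of 40 and 28 of 41 cluster 0 cells. Pecam1 was at 359.1 and 106.5 CPM against 880 and 940 CPM and was lower with its protein. Itga2b was at 32.9 and 82.7 CPM against 13.2 and 51.8 CPM, 1.26 and 0.67 on the log2 scale, which meets neither criterion.

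Genes of general cell function differed far less. All 19 measured S phase genes met neither criterion (median −0.04, 0.48 in GL53 and −0.51 in GL78). Of 19 mitosis genes 3 were higher and 0 lower (median 0.55, 0.35 under TMM), namely Hmmr (1.93 ± 0.17), Top2a (1.59 ± 0.80) and Mki67 (1.16 ± 0.10). Top2a and Mki67 lost the call under TMM, and Hmmr and Top2a in G1 cells alone. Of 10 measured cyclin and CDK inhibitor genes, Cdkn1a, the p21 gene (184.6 and 585 against 22.9 and 22.8 CPM), and Cdk6 (320.1 and 317.4 against 46.3 and 56.7 CPM) were higher, and Ccnd1, the cyclin D1 gene, was lower (19.1 and 6.33 against 78.02 and 172.5 CPM). None of 22 ribosomal protein genes and none of 16 oxidative phosphorylation genes met either criterion (medians 0.16 and −0.12, and −0.05 and −0.32 under TMM). The glucose transporter genes went opposite ways within a level glycolysis list (median 0.13, −0.08 under TMM). Slc2a3, used by leukocytes and neurons, was higher (92.5 and 486 against 20.7 and 2.64 CPM), and Slc2a1, the endothelial one, was lower (88.6 and 94.8 against 335.2 and 321.6 CPM).

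Immediate early genes, which cell dissociation can induce, had 3 higher and 1 lower of 14 measured (median 0.48, 0.04 in GL53 and 0.93 in GL78). Ier3 (2.78 ± 0.14), Zfp36 (2.08 ± 0.05) and Egr1 (1.12 ± 0.01, a call lost under TMM and without the highest cell) were higher and Atf3 (−3.35 ± 0.42) was lower. Imprinted genes other than Mest had 7 lower and 0 higher of 10 measured (median −2.29). Plagl1, a factor that regulates other imprinted genes, was at 31.8 and 0 CPM in cluster 2 and 453 and 421 CPM in cluster 0, and Meg3 (−4.92 ± 1.69) and Peg3 (−3.31 ± 0.87) were lower too. H19 (−1.94 ± 0.88) and Igf2 (−2.12 ± 1.24) were lower as well and were named after their values were seen.

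The clusters also held cells of other sorts, clustered together with these, and their values are set side by side without a test. Of the 990 higher genes, 854 were measured in GFI1− IAHC at E11.5 in GL78 (7 cells of cluster 2 and 12 of cluster 0), and 654 of them (76.6%) were at least 2-fold higher in cluster 2 there, against 26% of all genes measured in those cells. Of the 1175 lower genes, 926 of 1075 (86.1%) were at least 2-fold lower, against 30.1%. At E10.5, in GFI1+ IAHC of GL69 (6 and 6 cells) and GL78 (36 and 13 cells), 67.3% and 63.2% of the higher genes measured were higher, against 19.8% and 14.5% of all genes. For the lower genes these shares were 69.6% and 65.1%, against 18.7% and 13.2%. The venous list had medians of −4.57 and −6.22 in the GFI1+ cells of E11.5, against −5.90 in GFI1− IAHC and −6.42 and −5.76 at E10.5. The pan-endothelial list varied more, with −2.79 and −4.72 in the GFI1+ cells of E11.5 (GL53 and GL78), against −8.38 in GFI1− IAHC and −2.25 and −1.66 at E10.5.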

How the data were processed

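Single cells were index-sorted and sequenced by Smart-Seq2, with 1 cell per library. The authors deposited whole-number counts per gene, and the submitters' processing notes name STAR 2.7.3, HTSeq 0.9.1, Scanpy 1.4.4 and the build mm10; the annotation release and the strand setting are not given in the sources used here. Clusters were deposited by the authors, who used Louvain at resolution 0.5 (11 clusters) after regressing out read depth, mitochondrial share and cell cycle, with no batch correction. The deposited fluorescence intensity values are linear and some lie below 0, and the mitochondrial share was deposited by the authors as a fraction of a cell's counts. The authors' normalised table was not used.

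Counts were summed per cluster and batch, scaled to CPM and compared as log2 ratios with a pseudocount of 1 CPM, in each batch and as their mean. Genes at 10 CPM or more in either cluster of each batch counted as measured, and genes 2-fold or more apart, the same way in both batches, as higher or lower. A count of 0 was given a floor of 3 counts per cluster and batch, a convention on read counts that sets no limit on molecules. Rows of 92 spike-ins held 0 counts, and 0.0742% of counts fell on genes without a symbol. Levels were not compared between genes. The sums were tested on simulated data. Python 3.11.15, numpy 2.4.6, pandas 2.3.3, scipy 1.17.1, matplotlib 3.10.9, and edgeR 4.0.16 in R 4.3.3 (TMM factors only) were used.

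Genes were named by rank where, in both batches, the higher cluster had at least 20 CPM and reads in at least 50% of cells and the ratio was at least 4-fold, taking the 15 per direction with the largest smaller-batch ratio and passing over predicted genes and pseudogenes. Notch genes, genes of sorted proteins, heptad factors, pairs of relatives and up to 4 members of each list were named as well. List members named because they met neither criterion, members named for a lost call, and Krt18, H19 and Igf2, were chosen after their values were seen. All members and lists were chosen with earlier results of these data known. Some list members are counted but not reported by name here. Gene positions are from GENCODE M21. What a batch comprised was not given beyond its name. Cells were not tested for doublets. Alternatives were other pseudocounts, TMM scaling, no filter, equal weight per cell, thinning to 100000 counts, G1 cells, single batches and leaving out the highest cell.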

Additional observations from a re-analysis of the deposited data

Results flagged for a closer look

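In 4 cases the E10.5 GFI1+ cells had values on the other side of 0 from the E11.5 GFI1+ cells, in both batches of each stage. The difference was not tested in any of them. Gja4, the arterial connexin 37 gene, had log2 ratios of cluster 2 over cluster 0 of 6.53 (GL69) and 6.09 (GL78) at E10.5, against −1.03 (GL53) and −5.80 (GL78) at E11.5. Id1, a BMP response gene, had 0.37 and 0.98 at E10.5, against −1.64 and −7.95 at E11.5. The median of mitosis genes was −0.04 and −0.37 at E10.5, against 0.73 and 0.47 at E11.5. The median of immediate early genes was −0.18 and −0.11 at E10.5, against 0.04 and 0.93 at E11.5. TMM scaling, which moves every GL53 ratio by −0.17, takes the 0.04 below 0, so that case rests on the scaling. Clusters at E10.5 held 6 and 6 cells in GL69 and 36 and 13 in GL78.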

How the results depend on the processing

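No paired analysis was possible because the labels name no animal or replicate for a cell and do not tie the batches to separate pools of embryos; the clusters were compared within each batch, without a test. The counts of 990 higher and 1175 lower genes became 1514 and 1925 without a filter, 2395 and 2300 without batch GL53, and 2030 and 1876 without batch GL78, where a single batch had to pass. With a pseudocount of 0.1 CPM they were 1034 and 1194, with 5 CPM 848 and 1080, and under TMM 779 and 1390. With equal weight per cell they were 1022 and 1215, and after thinning 1029 and 1228. In G1 cells they were 1002 and 1347, and without the highest cell 708 and 1417. Of the 990 and 1175 genes, 911 and 1133 kept the call with equal weight per cell and 863 and 1091 after thinning. In G1 cells 719 and 1010 kept it, and without the highest cell 686 and 1086. In all settings 0 genes changed direction. For other pseudocounts, TMM, no filter and single batches this was fixed, since the same sums were used. The difference of means in place of medians was 782.6 (294.1) for GFI1 and −32272.5 (−40054.8) for CD31. The lymphoid median was −1.29 in G1 cells, against 5.27. The megakaryocyte median was 0.20 without GL53, where members had to be measured in GL78 only. Over the members measured in both batches it was 1.61 in GL78. CD41 differed by 523.5 in GL53 and −50.6 in GL78. The cause was not tested. GL58, with 2 and 6 cells, and cells without a cluster were not run.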
